A study of Mus musculus with 8 samples.

Results

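The promoters and gene loci of 8 transcription factors and cofactors of red blood cell development, *Gata1*, *Klf1*, *Nfe2*, *Zfpm1*, *Bcl11a*, *Ldb1*, *Foxo3* and *Sox6*, were examined in lists of H3K9ac peaks from mouse bone marrow (BM). The members were chosen by name, as 8 of 21938 annotated protein-coding genes, and each was described by the peaks within 1 kb of any of its transcription start sites (TSSs) and by the peaks within its gene body and 20 kb on either side. The loci held 138 sites, the merged peaks of all 6 lists, out of 64462 sites in the genome. H3K9ac, the acetylation of lysine 9 of histone H3, is found at active promoters and enhancers. It was profiled by ChIP-seq with an antibody in BM cells kept frozen until use, taken from mice of the C57BL/6 background that all carried the *NUP98-HOXD13* transgene, a model of myelodysplastic syndrome that progresses to acute myeloid leukaemia. *GFI1-36S* and *GFI1-36N* mice carry the human form of the transcriptional repressor GFI1 with serine or with asparagine at the variant position in place of the murine gene, and *GFI1-KD* mice express GFI1 at a lower level. Each genotype had 1 vehicle (DMSO) library and 1 from curcumin, a plant polyphenol that inhibits histone acetyltransferases, given at 20 mg/kg by weekly intraperitoneal injection. Mice were killed once leukaemia or poor health appeared, and neither their ages nor the number of mice behind a library are given in the sources used here. Each group being a single library, differences could not be checked against replicates and no test was made.

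GATA1 is the master regulator of erythroid differentiation and binds GATA sequences at nearly every red cell gene. KLF1 binds CACCC boxes of the adult globin and membrane genes, NFE2 pairs with small Maf proteins at globin control regions, FOG-1 (the product of *Zfpm1*) is the partner of GATA1, and LDB1 bridges complexes that hold GATA1 and TAL1. BCL11A and SOX6 silence embryonic and fetal globin genes, and FOXO3 drives antioxidant and late maturation genes in erythroblasts. Several of these genes are also used outside the red lineage: *Nfe2* in megakaryocytes and myeloid cells, *Bcl11a* in B cells and progenitors, *Ldb1* and *Foxo3* in most cell types.

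The lists held between 20354 and 49213 peaks, and whole summit fragment counts were recovered for 98.31% or more of a list's peaks, with a median of 24 to 36 fragments per summit. The list labelled *GFI1-36S* curcumin stood apart. It was the shortest, had a promoter peak at 0 of 10 erythroid, 0 of 10 neutrophil and 10 of 11 T-cell marker genes, and alone had peaks at the Y-linked genes *Uty*, *Kdm5d* and *Eif2s3y* and lacked one at *Xist*. For *GFI1-36S*, label and list name disagree on which library received curcumin, and the label was used. List names, though not labels, describe *GFI1-36N* as heterozygous with vehicle and homozygous with curcumin, so that zygosity and treatment cannot be told apart there. Of the 10 erythroid markers, 10 had a promoter peak in the *GFI1-36S* vehicle list, 7 in *GFI1-36N* vehicle, 3 in *GFI1-36N* curcumin, 10 in *GFI1-KD* vehicle and 3 in *GFI1-KD* curcumin. Their summed fold enrichment in these lists was 78.6, 33.9, 28.6, 99.3 and 15.4. The libraries compared thus differed in these markers, whose part in the values below was not tested. In BM, fewer erythroid cells and less acetylation per erythroid cell cannot be told apart.

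Promoter H3K9ac differed widely among the members. To compare libraries, each gene was given a rank from 0 (no peak) to 100, the place of its strongest promoter peak by fold enrichment among those of all protein-coding genes in the list. *Foxo3* ranked between 83.7 and 98, above the other members in every library but *GFI1-36N* curcumin, where *Nfe2* ranked 90.4 and *Foxo3* 84.1. *Ldb1* stayed between 46.2 and 64.7. *Klf1* ranged from 24.3 to 68.6 and *Nfe2* from 19.9 to 90.4, the widest range of the members at 70.5 points. *Zfpm1* ranked between 14.9 and 47.3. A promoter peak of *Klf1*, *Nfe2*, *Zfpm1*, *Ldb1* and *Foxo3* was listed in all 6 libraries, and one of *Bcl11a* in 5. *Gata1* had one in 3 and *Sox6* in 2, never above a rank of 22.9. The gene for the master regulator thus had a low promoter rank in this tissue, below its partner *Zfpm1* in every library.

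**Figure D1:**
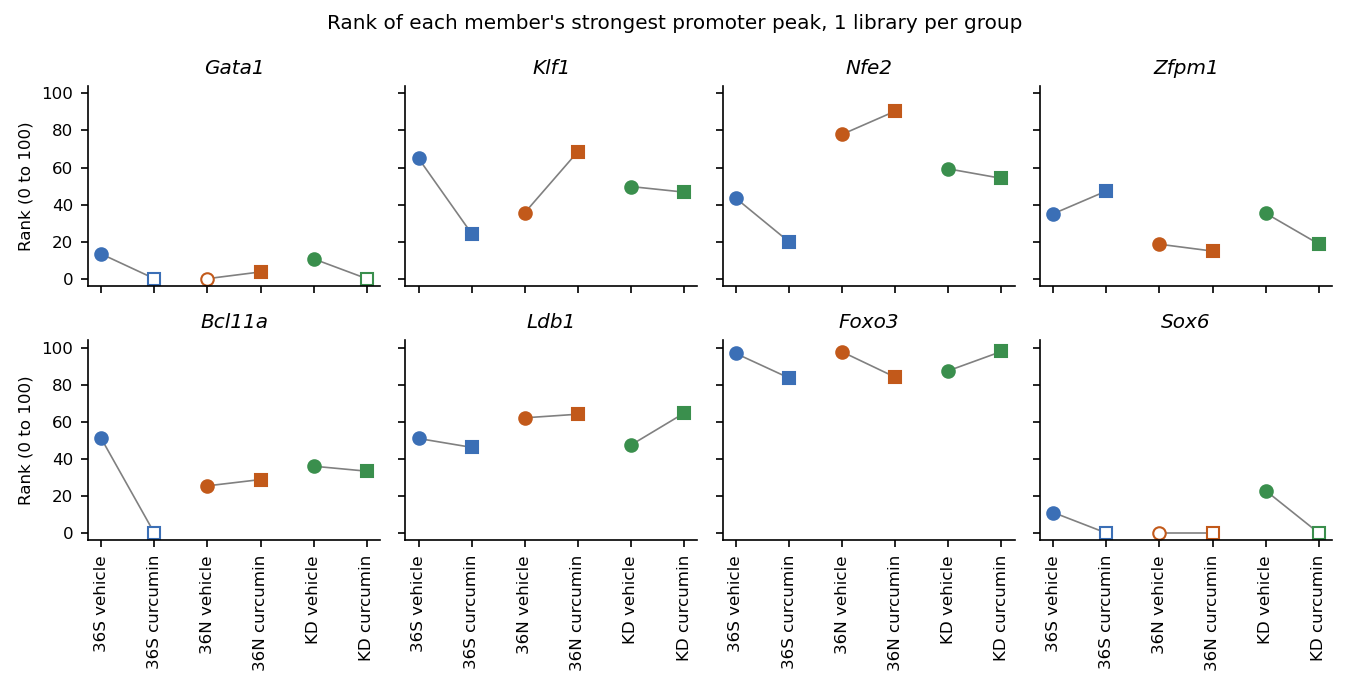
Rank of the strongest promoter peak of each member (vertical axis, 0 to 100) in the 6 libraries (horizontal axis). Circles are vehicle and squares curcumin, open symbols mark libraries without a promoter peak, and grey lines join the libraries of 1 genotype. *Foxo3* lies between 83.7 and 98, *Gata1* at or below 13.3.

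*Gata1* lies on chromosome X (7959260 to 7978071 of mm10, minus strand). Its promoter peak was listed in the *GFI1-36S* vehicle, *GFI1-KD* vehicle and *GFI1-36N* curcumin libraries, with fold enrichments of 7.41, 6.04 and 3.63 over the local background and 43, 43 and 20 fragments at the summit. It was absent from the *GFI1-36S* curcumin, *GFI1-36N* vehicle and *GFI1-KD* curcumin libraries. The peaks with vehicle covered 1.85 and 1.59 kb and had their summits 287 and 348 bp downstream of the TSS, in an intron, while the *GFI1-36N* curcumin peak was 0.412 kb wide. The peak was thus listed with vehicle alone in *GFI1-36S* and *GFI1-KD* mice, and with curcumin alone in *GFI1-36N* mice. In the *GFI1-36N* curcumin list the peak ranked 3.64, and it was not among the 20354 peaks of that list with the lowest p. A smaller site centred 1.33 kb upstream of the TSS (chrX:7969009-7969480) was listed in the same 3 libraries as the promoter, with fold enrichments of 3.88, 3.17 and 3.63. The neighbouring gene *Hdac6* has a pair of promoter sites in the *Gata1* locus, 1 of which was listed in all 6 libraries, at fold enrichments between 4.45 and 7.81.

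Reference sequences from RefSeq (GRCm38.p6, the same assembly as mm10) are shown for the members whose promoter peak was present in some libraries and absent from others. Each promoter runs from 250 bp before to 50 bp after a TSS, on the strand of the gene. Capitals mark matches on either strand to GATA with A or T before it and A or G after it (GATA), to CCNCNCCC (KLF) and to TGANTCA (NF-E2). Of 32851 promoters in the RefSeq table, 29.8% hold a GATA match, 49.5% a KLF match and 7.81% an NF-E2 match.
Gata1 promoter, chrX:7967861-7968160, minus strand: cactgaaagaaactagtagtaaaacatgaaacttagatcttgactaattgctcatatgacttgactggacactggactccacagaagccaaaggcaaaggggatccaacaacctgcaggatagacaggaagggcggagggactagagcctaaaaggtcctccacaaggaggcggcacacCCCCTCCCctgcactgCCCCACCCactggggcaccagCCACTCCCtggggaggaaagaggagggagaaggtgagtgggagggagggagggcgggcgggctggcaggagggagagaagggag
Bcl11a promoter, chr11:24080445-24080744, plus strand: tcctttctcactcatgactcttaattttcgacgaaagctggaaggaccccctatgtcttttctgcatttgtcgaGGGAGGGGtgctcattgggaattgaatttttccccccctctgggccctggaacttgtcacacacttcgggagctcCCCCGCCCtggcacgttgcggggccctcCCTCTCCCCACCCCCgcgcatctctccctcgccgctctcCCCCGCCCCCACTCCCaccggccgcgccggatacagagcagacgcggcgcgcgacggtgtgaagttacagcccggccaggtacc
Sox6 promoter, chr7:115846091-115846390, minus strand: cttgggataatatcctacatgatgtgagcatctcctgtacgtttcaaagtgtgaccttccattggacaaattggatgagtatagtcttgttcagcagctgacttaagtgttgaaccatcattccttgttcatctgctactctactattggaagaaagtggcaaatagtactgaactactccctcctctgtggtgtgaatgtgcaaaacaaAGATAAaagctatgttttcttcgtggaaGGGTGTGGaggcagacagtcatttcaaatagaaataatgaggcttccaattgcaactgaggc
The *Gata1* window has 3 KLF matches and no GATA match, the *Bcl11a* window 8 overlapping or neighbouring KLF matches, and the *Sox6* window 1 of each. No NF-E2 match was found in them. A match is a run of letters and does not show binding. Promoters of 7 members were found in the table. That of *Nfe2* was not.

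*Klf1* (chromosome 8, 84901928 to 84905291, plus strand), the activator of the adult globin programme, was by the labels higher with curcumin in *GFI1-36N* and lower in *GFI1-36S* mice. With the *GFI1-36S* treatments exchanged, as the list names have them, the *GFI1-36S* direction turned. In *GFI1-36N*, the list names give a different zygosity for each treatment. With vehicle and curcumin, its fold enrichment was 14.1 and 26.0 in *GFI1-36N* mice, 21.6 and 18.4 in *GFI1-KD*, and 23.9 and 8.55 in *GFI1-36S* mice. At the summit, 97 and 149, 157 and 110, and 141 and 47 fragments were recovered in the same order. For a comparison on a common scale, the summit fragments were divided by the genome background of the library. The height with curcumin was 1.90 times that with vehicle in *GFI1-36N* mice (95% interval 1.46 to 2.48), 0.868 times in *GFI1-KD* (0.674 to 1.12) and 0.350 times in *GFI1-36S* mice (0.246 to 0.490). These intervals cover counting error only and not the difference between mice. The *GFI1-KD* difference was thus within counting error. In *GFI1-36N* mice, 7 erythroid markers had a peak in the vehicle library and 3 in the curcumin library, the opposite direction to *Klf1*. The peak covered the TSS in *GFI1-36S* vehicle, *GFI1-36N* curcumin and *GFI1-KD* vehicle and began downstream of it in the other libraries. In all 6 libraries the summit was in a coding exon, 1024 to 1061 bp past the TSS, just outside the 1 kb window that the peak itself overlapped. When the summit had to lie in the window, smaller peaks were left in *GFI1-36S* vehicle (rank 4.01), *GFI1-36N* vehicle (3.18) and *GFI1-36N* curcumin (7.27), and no peak in the other 3 libraries.

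Other sites around *Klf1* were also higher with curcumin in *GFI1-36N* mice. The promoter site of *Dnase2a*, which encodes the nuclease that degrades DNA of expelled erythroblast nuclei, lies 7.32 kb downstream of the *Klf1* TSS, and its height with curcumin was 1.39 times that with vehicle (1.11 to 1.74). A site at 11.4 kb downstream was 2.15 times as high (1.39 to 3.38), and that of *Gcdh*, upstream, 1.5 times (1.02 to 2.21). Over all 26279 sites listed in both *GFI1-36N* libraries, the median ratio was 1.18, and over promoter sites it was 1.25, inside the intervals of *Dnase2a* and *Gcdh* but below those of *Klf1* and the site at 11.4 kb. In *GFI1-KD* mice these ratios were 1.12 (0.899 to 1.40) for *Dnase2a*, 1.11 (0.740 to 1.65) at 11.4 kb and 0.955 (0.664 to 1.37) for *Gcdh*. In *GFI1-36S* mice they were 0.367, 0.350 and 0.551, beside a median of 0.581 over promoter sites and 0.721 over sites elsewhere.

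*Nfe2* (chromosome 15, 103248212 to 103258403, minus strand), which encodes the large subunit of NF-E2, ranked 77.9 (vehicle) and 90.4 (curcumin) in *GFI1-36N* mice, at fold enrichments of 24.3 and 33.7. In *GFI1-KD* mice the ranks were 59.3 and 54.2 (fold enrichments of 24.5 and 20.3), and in *GFI1-36S* mice 43.4 and 19.9 (18.4 and 7.69). Both *GFI1-36N* libraries thus ranked above the other 4. By summit height over the library background the order differed. The height was greatest in *GFI1-KD* vehicle, at 45.2 (40 to 50.8). It was 34.1 (29.6 to 39.2) in *GFI1-36N* vehicle and 40.6 (35.1 to 46.7) in *GFI1-36N* curcumin. In *GFI1-36N* mice the height differed little, with a curcumin to vehicle ratio of 1.19 (0.971 to 1.46), and the difference of 12.5 rank points was 3.55 points when peaks were ranked by −log10 p. The ratio was 0.832 (0.687 to 1.01) in *GFI1-KD* and 0.371 (0.275 to 0.495) in *GFI1-36S* mice. The width differed more. The peak spanned 5.25 to 6.5 kb in the 3 vehicle libraries and 6.35 kb with curcumin in *GFI1-36N*, but 2.96 kb in *GFI1-KD* curcumin mice, where a second promoter peak (fold enrichment 4.04) was called close beside it, and 0.709 kb in *GFI1-36S* curcumin mice.

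**Figure D2:**
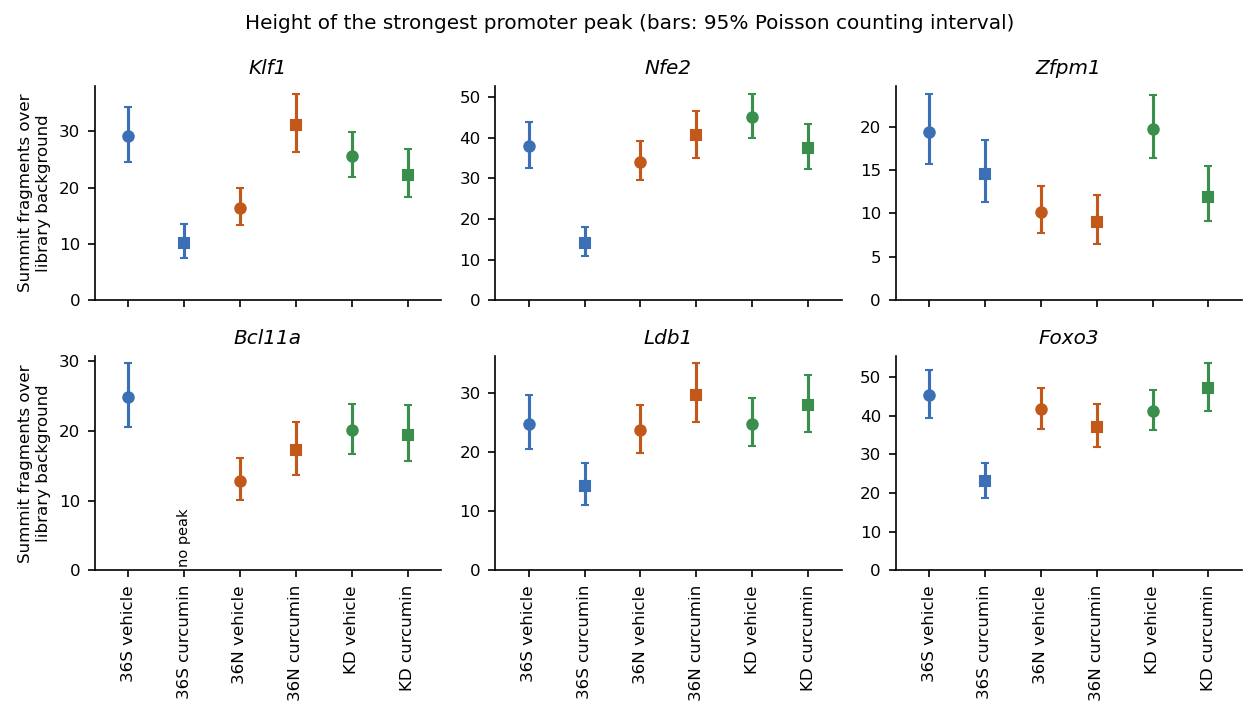
Fragments at the summit of the strongest promoter peak, divided by the genome background of the library (vertical axis), for the 6 members with a peak in at least 5 libraries. Circles are vehicle, squares curcumin and bars the 95% Poisson intervals, which cover counting error only. *Klf1* is higher with curcumin in *GFI1-36N* (31.2 against 16.4), and *GFI1-36S* curcumin holds the lowest value for *Klf1*, *Nfe2*, *Ldb1* and *Foxo3*.

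*Zfpm1* (chromosome 8, 122282141 to 122337251, plus strand), the gene of FOG-1, had a pair of promoter sites, 1 upstream and 1 downstream of its single TSS. With curcumin they went in different directions in *GFI1-KD* mice. The downstream site, in an intron, had fold enrichments of 16.7 (vehicle) and 8.46 (curcumin) in *GFI1-KD* mice, 8.77 and 7.10 in *GFI1-36N* mice, then 16 and 12.1 in *GFI1-36S* mice. For the strongest peak of the upstream site these were 6.04 and 9.95, 5.32 and 7.61, and 6.40 and 6.23. The downstream site was therefore the stronger in 4 libraries and the upstream site in *GFI1-36N* and *GFI1-KD* with curcumin. In *GFI1-KD* mice the downstream height with curcumin was 0.512 times that with vehicle (0.361 to 0.718), and the upstream height 1.70 times (1.13 to 2.58). In *GFI1-36N* mice the ratios had the same directions, 0.825 (0.539 to 1.25) and 1.48 (0.928 to 2.37), with intervals that spanned 1. The upstream summits of a pair were at different positions (122281630 with vehicle and 122281243 with curcumin in *GFI1-KD*, 122281711 and 122281267 in *GFI1-36N* mice), so that these ratios compare the strongest points of the site. In *GFI1-KD* mice the upstream site held 2 peaks in each library, and the fold enrichment was 5.76 with vehicle and 9.95 with curcumin for the outer and 6.04 and 8.95 for the inner one. In *GFI1-36S* mice the upstream ratio was 0.965 (0.587 to 1.58). Further along the gene the split went on. The site 3.38 kb downstream of the TSS had a ratio of 0.408 (0.256 to 0.632) in *GFI1-KD* mice, while that at 33.2 kb, also in an intron, had 1.69 (1.07 to 2.67). The median over all 20990 sites listed in both *GFI1-KD* libraries was 0.931. The ranks of *Zfpm1* in *GFI1-KD* mice, 35.3 with vehicle and 18.7 with curcumin, thus came from different peaks. In *GFI1-36S* mice the ranks were 35.0 (vehicle) and 47.3 (curcumin) although the downstream height was 0.748 times as great (0.539 to 1.03). The median ratio over all 12144 sites listed in both of these libraries was 0.602.

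The sequences at the summits of the 2 *Zfpm1* sites that were higher with curcumin in *GFI1-KD* mice are given on the strand of the gene, 150 bp each, with capitals as above. The site at 33.2 kb was absent from the *GFI1-36S* curcumin list, and the upstream site was chosen after its values were seen.
Zfpm1 upstream summit, chr8:122281168-122281317, plus strand: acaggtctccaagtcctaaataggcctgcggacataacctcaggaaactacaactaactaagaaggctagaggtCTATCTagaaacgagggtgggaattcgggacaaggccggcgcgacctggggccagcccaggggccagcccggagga
Zfpm1 intron summit, chr8:122315225-122315374, plus strand: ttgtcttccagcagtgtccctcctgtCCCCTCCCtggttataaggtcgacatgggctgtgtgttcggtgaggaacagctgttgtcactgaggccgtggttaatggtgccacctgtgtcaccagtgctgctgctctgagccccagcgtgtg
The upstream window holds 1 GATA match, at position 75 of 150, and the intron window 1 KLF match. Summit windows of the same length, from the *GFI1-36S* vehicle list, were also searched at 2 sites of other members. These were the site 1.33 kb upstream of the *Gata1* TSS and a *Bcl11a* intron site 21.5 kb downstream of its first TSS. Neither held a GATA, KLF or NF-E2 match. In the *GFI1-KD* curcumin list, 6.35% of 11029 summits in promoter sites hold a GATA match in a window of this length, and 16.8% of 14292 summits outside promoter windows hold a KLF match.

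**Figure D3:**
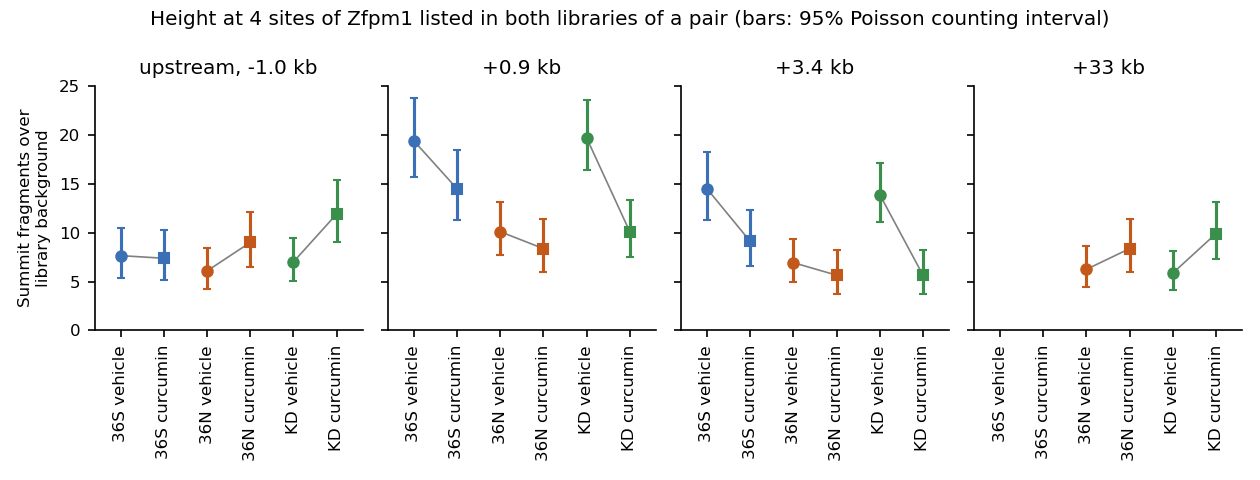
Summit height over the library background (vertical axis) at 4 *Zfpm1* sites, named by distance from the TSS, for pairs of libraries in which both listed the site. The site at +33 kb was listed with vehicle but not with curcumin in *GFI1-36S* and is not drawn there. Bars are 95% Poisson intervals. In *GFI1-KD* the outer panels are higher with curcumin (7.01 to 11.9 and 5.87 to 9.91) and the inner panels lower (19.7 to 10.1 and 13.9 to 5.66).

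*Ldb1* (chromosome 19, 46031570 to 46045214, minus strand), the bridging factor, had ranks within 18.5 points of each other. Its fold enrichment was 20.9 (vehicle) and 23.0 (curcumin) in *GFI1-KD* mice, 20.3 and 24.7 in *GFI1-36N* mice, then 20.3 and 11.9 in *GFI1-36S* mice. The rank in *GFI1-KD* mice was 17.2 points higher with curcumin, but the height ratio of 1.13 (0.887 to 1.43) was within counting error. A pair of promoter sites, centred 6.41 and 0.155 kb past the first TSS, was listed in every library, and the former was the stronger in both *GFI1-36S* libraries. *Foxo3* (chromosome 10, 42181841 to 42276755, minus strand) had fold enrichments of 34.7 (vehicle) and 38.7 (curcumin) in *GFI1-KD* mice, 35.5 and 30.8 in *GFI1-36N* mice, then 37.0 and 19.1 in *GFI1-36S* mice. Its rank was 13.7 points lower with curcumin in *GFI1-36N* and 10.4 points higher in *GFI1-KD* mice. The height ratios of 0.891 (0.730 to 1.09) and 1.14 (0.951 to 1.37) were within counting error. Only in *GFI1-36S* mice did the interval lie below 1, at 0.508 (0.399 to 0.644), which holds the median of 0.581 over all promoter sites of that pair. All 6 *Foxo3* summits lay just upstream of a TSS, at −286 to −253 bp.

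*Bcl11a* (chromosome 11, 24078056 to 24174123, plus strand) had a broad promoter domain of 7 to 9.42 kb in 5 libraries and no peak in *GFI1-36S* curcumin. The fold enrichment was 17.0 (vehicle) and 14.8 (curcumin) in *GFI1-KD*, 11.1 and 14.4 in *GFI1-36N*, and 20.3 in *GFI1-36S* vehicle mice. The height ratio was 1.34 (0.966 to 1.85) in *GFI1-36N* and 0.967 (0.733 to 1.27) in *GFI1-KD* mice, both intervals spanning 1. In *GFI1-KD* mice the summits lay at 24076998 with vehicle and 24082025 with curcumin, so that this ratio compares different points of the domain. The domain also covers the promoter of *A830031A19Rik*, and its summits lay 1247 to 1442 bp past the nearest TSS, or at −1058 bp in *GFI1-KD* vehicle, so that no library had a summit within the 1 kb window. *Sox6* (chromosome 7, 115470872 to 116038796, minus strand) had promoter peaks with vehicle in *GFI1-36S* and *GFI1-KD* mice, with fold enrichments of 6.40 and 11.6, and none in the other 4 libraries. With a window of 3 kb, a peak in *GFI1-36N* curcumin, of rank 3.4, was added. Of the 6 *Sox6* promoters in the RefSeq table, the peak of both libraries overlapped the one shown above. The summits lay 327 bp past the nearest GENCODE TSS in *GFI1-36S* and 1341 bp past it in *GFI1-KD* mice. *Sox6* and *Gata1* were thus the members listed in the *GFI1-36S* and *GFI1-KD* vehicle libraries, which each held 10 of 10 erythroid markers, and absent from the curcumin library of both genotypes. In *GFI1-36N* mice, *Gata1* had its peak in the curcumin library, with 3 of 10 markers, and none in the vehicle library, with 7. *Sox6* had a promoter peak in neither. A link between these peaks and the markers was not tested.

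The counts over the members were set beside those over all protein-coding genes whose promoter had a peak in either library compared. A difference of at least 10 rank points was used as the size rule. In *GFI1-36N* mice, of 7 members with a peak, 2 were at least 10 points higher with curcumin (*Klf1*, *Nfe2*) and 1 lower (*Foxo3*). Of all genes, 19.3% were higher and 11.3% lower. The median was 3.4 for the members and 1.89 for all genes. In *GFI1-KD* mice, 3 of 8 members were lower (*Gata1*, *Zfpm1*, *Sox6*) and 2 higher (*Ldb1*, *Foxo3*), beside 20.6% and 9.47% of all genes. The medians were −4.06 and −2.34. The members of *GFI1-36S* mice were lower in 6 of 8 (all but *Zfpm1* and *Ldb1*) and higher in 1 (*Zfpm1*), beside 41.4% and 15.0% of all genes, with medians of −13.3 and −6.61. Here the library labelled curcumin is the one that stood apart.

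By presence alone, *Gata1* gained a promoter peak with curcumin in *GFI1-36N* mice and no member lost one, where 5.73% of all promoters gained and 1.84% lost a peak. In *GFI1-KD* mice, 2 members lost the peak (*Gata1*, *Sox6*) and 0 gained one, with 6.73% and 1.19% of all promoters. In *GFI1-36S* mice, 3 members lost it (*Gata1*, *Bcl11a*, *Sox6*) and 0 gained one, with 16.2% and 1.99%.

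Between the vehicle libraries, *GFI1-36N* mice had lower ranks than *GFI1-36S* mice at 5 of 8 members (*Gata1*, *Klf1*, *Zfpm1*, *Bcl11a*, *Sox6*) and higher ranks at *Nfe2* and *Ldb1*, where 17.5% of all genes were lower and 15.3% higher. The median was −12.2 for the members and −0.67 for all genes. With the summit required in the window, 3 members were lower and the members' median was −0.834. The height ratio was 0.562 (0.430 to 0.733) for *Klf1*, 0.522 (0.371 to 0.729) for *Zfpm1* and 0.518 (0.383 to 0.696) for *Bcl11a*, all below 1. It was 0.897 (0.731 to 1.10) for *Nfe2* and 0.954 (0.742 to 1.23), between peaks at different sites, for *Ldb1*. The higher ranks of *Nfe2* and *Ldb1* thus did not go with a greater height. The library backgrounds were 5.92 (*GFI1-36N*) and 4.84 (*GFI1-36S*) fragments. A median ratio over all promoter sites was not computed between vehicle libraries, so these ratios cannot be set beside that of the genome. Between *GFI1-KD* and *GFI1-36S* mice, 2 members were lower (*Klf1*, *Bcl11a*) and 2 higher (*Nfe2*, *Sox6*), with 9.97% and 16.4% of all genes, and medians of −3.09 and 1.14. Of these, only *Sox6* had a height ratio whose interval excluded 1, at 1.79 (1.20 to 2.71). That ratio compares different points, with summits at 115845778 in *GFI1-36S* and 115844764 in *GFI1-KD* mice. A *GFI1-36S* peak of the same site, with a fold enrichment of 7.91, did not reach the promoter window. With the summit required in the window, the *Sox6* ranks were 11.3 (*GFI1-36S*) and 18.8 (*GFI1-KD*), less than 10 points apart. These ranks come from different promoter sites, since the *GFI1-KD* peak above, with its summit 1341 bp past the TSS, then dropped out. The *GFI1-KD* rank was that of a second promoter site (chr7:116031504-116032759, fold enrichment 9.72), which was not listed in *GFI1-36S* vehicle. Both comparisons use the same *GFI1-36S* vehicle library. If the list names are right and the labels wrong, the medians become 15.0 and 16.8.

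The sites beyond the promoters stood farthest from the genome's shares in *GFI1-KD* mice. Of the 138 sites in the members' loci, 12 were promoter sites of the members, 8 of other genes, and 118 lay elsewhere, 87 of them with the summit in an intron. In *GFI1-KD* mice, 105 sites were listed with vehicle and 29 with curcumin. Of 107 sites listed in at least 1 of both libraries, 78 were lost with curcumin (72.9%) and 2 were gained (1.87%), while 36.3% of all sites in the genome were lost and 9.22% gained. Outside promoter windows, 74 of 89 were lost and 2 gained, beside 47.7% and 12.4% of all such sites. The median fold enrichment of these 74 sites was 3.58 with vehicle, and that of the 13 such sites listed in both libraries was 5.49. Over all sites outside promoter windows the medians were much the same, 3.48 and 5.11. When both lists were limited to their 20354 top peaks, 18 of 41 sites were lost (43.9%), beside 19.7% of all sites.

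*Zfpm1* and *Bcl11a* held most of the lost sites, 25 and 21. With vehicle, the *GFI1-KD* library had 30 of 35 *Zfpm1* sites and 26 of 34 *Bcl11a* sites and with curcumin 6 of each. *Foxo3* had 16 and 3 of 18 sites, and *Sox6* 13 and 1 of 15. At *Klf1* and *Nfe2*, by contrast, 1 site each was lost with curcumin in *GFI1-KD* mice and 4 and 3 remained. Without *Zfpm1* and *Bcl11a*, 32 of 49 sites were lost (65.3%). The *GFI1-KD* vehicle library alone listed 35 of the 138 sites, and 20 more were listed only there and in *GFI1-36S* vehicle. These are the 2 libraries with all 10 erythroid markers, and the *GFI1-KD* vehicle library also had all 10 neutrophil markers, against 5 with curcumin. Both *GFI1-KD* libraries had peaks at 7 of 7 progenitor, 6 of 7 monocyte and 3 of 11 T-cell markers. The summed fold enrichment was 46.9 with vehicle and 80.2 with curcumin for progenitor markers, and 66 and 85.9 for monocyte markers. Megakaryocyte markers had 4 and 1 peaks, and B-cell markers 4 and 2. The part of these cells in the loss of sites was not tested.

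**Figure D4:**
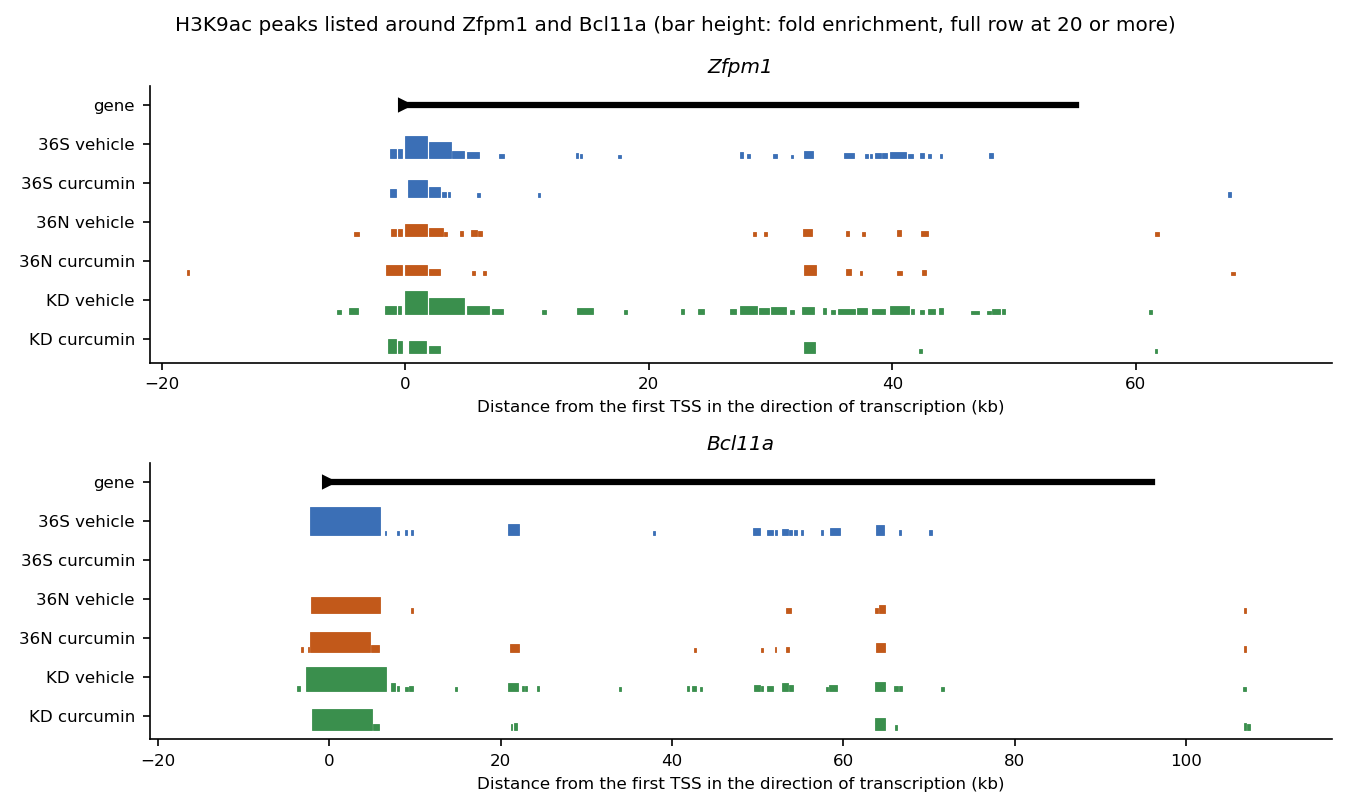
Peaks listed in the *Zfpm1* and *Bcl11a* loci by distance from the first TSS (horizontal axis, kb), with 1 row for each library. The height of a bar is the fold enrichment, up to 20, and the black line is the gene. The small peaks along the gene bodies are densest in *GFI1-KD* vehicle, with 30 and 26 sites, and *GFI1-36S* curcumin has none at *Bcl11a*.

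In *GFI1-36N* mice the shares over all sites of the loci were near those of the genome. Of 68 sites, 10 were lost with curcumin (14.7%) and 22 gained (32.4%), and over all sites 13.7% were lost and 31.8% gained. Outside promoter windows, 10 of 50 were lost and 18 gained, beside 17.5% and 39.4%. At promoter sites, 0 of 18 were lost and 4 gained (22.2%), beside 3.17% and 10.3%. The gained promoter sites were at *Gata1*, at *Sox6* and, in the *Bcl11a* locus, at *A830031A19Rik*. At *Sox6* the *GFI1-36N* curcumin peaks did not themselves reach the 1 kb window. Those sites count as promoter sites through peaks of other libraries merged with them. The gained share depended on the sites counted: with equal numbers of top peaks it was 7.69% beside 14.4% of all sites, and over sites in at least 2 lists 23.2% beside 16.3%. *Zfpm1* was the locus with more losses than gains, 4 and 2, while *Nfe2* had 3 and 6, *Bcl11a* 1 and 5 and *Gata1* 0 and 3. In *GFI1-36S* mice, 60 of 81 sites were lost and 2 gained, beside 57.3% and 9.85% of all sites. Outside promoter windows these were 55 and 2 of 64, beside 73.8% and 13.1%. All 17 *Bcl11a* and all 7 *Sox6* sites of the pair were lost there, and both gained sites were in the *Zfpm1* locus. A *Bcl11a* intron site 21.5 kb downstream of the first TSS (chr11:24098913-24100237) was listed in 4 libraries, with fold enrichments of 8.08 in *GFI1-36S* vehicle, 5.54 in *GFI1-36N* curcumin, and 5.63 and 4.65 in *GFI1-KD* vehicle and curcumin. A second at 64.3 kb was listed in every library but *GFI1-36S* curcumin, at fold enrichments of 5.75 to 8.46.

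**Figure D5:**
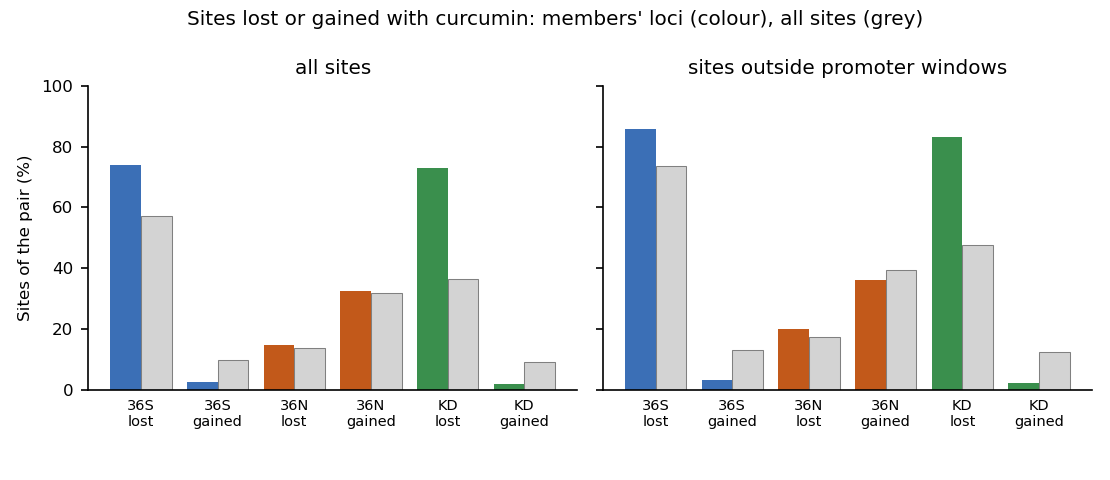
Percentage of sites lost or gained with curcumin in each genotype (vertical axis), for the members' loci (coloured bars) and all sites of the genome (grey bars), over all sites and over sites outside promoter windows. *GFI1-KD* shows the widest gap, 72.9% against 36.3% lost, and the *GFI1-36N* bars lie close to the grey ones.

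Other genes of the erythroid network were counted by the same size rule. In *GFI1-KD* mice, 18 of 24 target genes with a promoter peak were lower with curcumin and 2 higher, with a median of −15.5, beside 20.6% and 9.47% of all genes and a median of −2.34. Of 18 partners and corepressors, 7 were lower and 3 higher, and of 14 other regulators 3 and 0. The widest differences were at *Tal1*, the partner of LDB1 (56.5 with vehicle, 16.3 with curcumin), *Ikzf1* (96.5 and 63.8), *Bcl2l1*, which keeps late erythroblasts alive (94.5 and 61.9), and *Slc4a1*, the band 3 anion exchanger (33.4 and 0.977). The widest differences in the other direction were at *Lyl1* (59.9 and 78.4), *Cbfa2t3* (28.4 and 45.3), *Fech*, the last enzyme of heme synthesis (58.6 and 74.1), and *Ssbp4* (55.6 and 68.9). The target genes include erythroid markers, with promoter peaks at 10 of 10 markers in the vehicle and 3 in the curcumin library. In *GFI1-36N* mice, 2 of 21 target genes were lower and 2 higher, with a median of −0.0379, beside 11.3% and 19.3% of all genes. *Myb* (44.8 and 88.6), *Gata2* (10.4 and 42.0) and the transferrin receptor gene *Tfrc* (43.4 and 72.4) were higher with curcumin, and *E2f2* (75.9 and 46.8) and *Runx1* (80.8 and 55.8) lower. Progenitor markers had a promoter peak at 6 of 7 genes with vehicle and at 5 with curcumin. Their summed fold enrichment went the other way, 73.7 with vehicle and 94.8 with curcumin. In *GFI1-36S* mice, 14 of 23 target genes were lower and 2 higher, beside 41.4% and 15.0% of all genes, and *Lmo2* and *Spi1*, with ranks of 98.8 and 90.8 with vehicle, had no promoter peak in the list labelled curcumin. Between the vehicle libraries, 10 of 24 target genes ranked lower in *GFI1-36N* than in *GFI1-36S* mice and 3 higher, beside 17.5% and 15.3% of all genes. In *GFI1-KD* mice 3 were lower and 9 higher than in *GFI1-36S* mice, beside 9.97% and 16.4%.

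The genes with the most similar ranks over the 6 libraries were found by the mean absolute difference of rank. For *Klf1* these were *Ptgr2* (3.36 points), *Impa1* (4.3) and *Ctnna1* (4.79). For *Nfe2* the nearest gene, *Necap1*, was 6.94 points away, the farthest first neighbour of the members. For *Gata1* they were *Sh2d4a* (0.97), the platelet glycoprotein gene *Gp1ba* (1.09) and *Clca3a1* (1.14). *Tmem120b* (4.86) was nearest to *Zfpm1*, *Fbxl6* and *Slc52a2* (2.81 each) to *Ldb1*, and *Zkscan14* (2.56) to *Foxo3*. *Bcl11a* had a distance of 0 to *A830031A19Rik*, with which it shares its peak, and then 2.22 to *Klhl7*.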

How the data were processed

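Peak lists of 6 H3K9ac ChIP-seq libraries were used, 1 per genotype and treatment. The input and IgG samples were not used here. The authors trimmed the reads (Trim Galore), mapped them to mm10 with BWA, called peaks per library with MACS2 and removed black list regions. The control of each list and the threshold are not given in the sources used here. In the deposited lists, fold enrichment gives summit fragments over local background as a ratio. The authors' lists also hold −log10 p and −log10 q, and an integer score that was not analysed. None is normalized between libraries.

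TSSs came from the GENCODE M21 basic set. Overlap meant at least 1 bp. Merged peaks of all 6 lists formed sites. A site was lost or gained with curcumin when listed in only the vehicle or only the curcumin library of a pair. Summit fragments were recovered from fold enrichment and p (whole within 0.02, −log10 p below 300), and height ratios have exact 95% conditional intervals. Python 3.11.15, numpy 2.4.6, pandas 2.3.3, scipy 1.17.1 and matplotlib 3.10.9 were used. The steps were tested on simulated data.

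The members, gene lists and rules were chosen with earlier results of these data known. Named were all members, genes under named sites, the 3 genes nearest in rank for members with a peak in at least 3 libraries, up to 4 network genes per comparison and direction, and markers as counts. Other settings tried were a minimum −log10 q of 5, equal numbers of top peaks, windows of 3 kb, the summit in the window, ranks by −log10 p, all biotypes, flanks of 10 kb, sites in at least 2 lists, exchanged *GFI1-36S* treatments and, added after seeing the data, the comprehensive TSS set and sites without the *GFI1-36S* curcumin list.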

Additional observations from a re-analysis of the deposited data

Results flagged for a closer look

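At 4 members the rank difference between curcumin and vehicle was at least 10 points in opposite directions in a pair of genotypes. With 1 library per group, the difference between genotypes was not tested. *Foxo3* was lower with curcumin by 13.7 points in *GFI1-36N* mice (a difference of −13.7) and higher by 10.4 points in *GFI1-KD* mice, and it was −13.2 in *GFI1-36S* against the same 10.4 in *GFI1-KD* mice. *Klf1* differed by −40.6 points in *GFI1-36S* and by 33 in *GFI1-36N* mice, and *Nfe2* by −23.5 and 12.5. *Zfpm1* differed by 12.3 points in *GFI1-36S* and by −16.6 in *GFI1-KD* mice. The intervals of the height ratios spanned 1 for *Foxo3* in *GFI1-36N* and *GFI1-KD* and for *Nfe2* in *GFI1-36N* mice. They excluded 1 for *Klf1* in both genotypes, and for *Nfe2* and *Foxo3* in *GFI1-36S* mice. The *Zfpm1* ranks in *GFI1-KD* mice came from different peaks, and its height ratio in *GFI1-36S* mice was 0.748 (0.539 to 1.03). With the *GFI1-36S* treatments exchanged, *Klf1* and *Nfe2* were higher with curcumin in both *GFI1-36S* and *GFI1-36N* mice.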

How the results depend on the processing

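No paired analysis was possible because each group has 1 library and the replicate numbers only name it. With the *GFI1-36S* treatments exchanged, the *GFI1-36S* members were lower in 1 and higher in 6, with a median of 13.3, and *Gata1* (13.3), *Klf1* (40.6), *Nfe2* (23.5), *Zfpm1* (−12.3), *Bcl11a* (51.0), *Foxo3* (13.2) and *Sox6* (11.1) turned. 0 promoter peaks were then lost and 3 gained, with 2 sites lost and 60 gained. Against the exchanged vehicle library, *GFI1-36N* had 1 member lower, 5 higher and a median of 15.0, with *Klf1* (11.3) and *Bcl11a* (25.5) turned, and *GFI1-KD* had 1 lower, 5 higher and a median of 16.8, with *Klf1* (25.4) and *Bcl11a* (36.1) turned. With the summit in the window, 1 *GFI1-36N* member was higher with curcumin, *GFI1-36N* against *GFI1-36S* vehicle had 3 lower and a median of −0.834, and *GFI1-KD* against *GFI1-36S* vehicle had 0 lower and 1 higher. Ranked by −log10 p, 1 *GFI1-36N* member was higher with curcumin. With all biotypes, 0 *GFI1-36S* members were higher. With a window of 3 kb, *GFI1-KD* against *GFI1-36S* vehicle had 1 higher, and *GFI1-36N* gained 2 promoter peaks with curcumin.

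With equal numbers of top peaks, *GFI1-36N* against *GFI1-36S* vehicle had 3 members lower, *GFI1-36N* gained 0 promoter peaks, and *GFI1-36N* lost 4 and gained 2 sites, *GFI1-KD* 18 and 1, and *GFI1-36S* 14 and 5. Under a minimum −log10 q of 5, *GFI1-36N* gained 10 sites, *GFI1-KD* lost 41 and *GFI1-36S* lost 33. With flanks of 10 kb, *GFI1-36N* gained 14 sites, *GFI1-KD* 1 and *GFI1-36S* 1. Over sites in at least 2 lists, 13 were gained in *GFI1-36N*, 43 lost and 1 gained in *GFI1-KD*, and 1 gained in *GFI1-36S*. These settings test fewer sites. In *GFI1-KD* mice the lost share was 43.9% to 72.9% of the members' sites beside 19.7% to 36.3% of all sites over the list lengths and site filters run.

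A weak peak near the calling threshold can be listed in 1 library and missed in another, and absence from a list does not show absence of H3K9ac. The lists hold no reads outside peaks, so no limit for an absent peak can be given. Genotype, treatment, mouse and cell makeup cannot be told apart with 1 library per group.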
